A study of Mus musculus with 2 samples.

Results

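The cytosolic ribosomal protein genes are described here in the adrenal gland of 10-day-old male mice. A gene was taken in when the GENCODE M21 annotation (mouse build mm10) called it protein-coding and its symbol had the form of a ribosomal protein of the cytosol (Rpl, Rplp, Rps or Rpsa), which gave 83 of 55536 annotated genes and of 22015 protein-coding genes of the nuclear genome. Of these, 76 are core members (43 of the large subunit, 30 of the small subunit and 3 of the stalk) and 7 are paralogs, close relatives of a core member with a symbol of their own (Rpl3l, Rpl7l1, Rpl10l, Rpl22l1, Rpl36al, Rpl39l and Rps27l). A further 3 genes with a matching symbol (Rps4l, Rpl6l and Rpl32l) are pseudogenes in that annotation and were left out. The members lie on 19 chromosomes, with 14 on chromosome 7, 8 on chromosome 17 and 4 on the X chromosome.

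Total RNA was sequenced from adrenal gland tissue of male mice of strain B6CASTF1/J, the F1 hybrid named B6Cast F1 in the labels, at postnatal day 10. There were 2 libraries, replicate 2 and replicate 1, in a single group, so the design holds no treatment, genotype or control, and no p-value was computed. The characteristics number the animals 4 (replicate 2) and 3 (replicate 1), the library descriptions give the animal number 3 for both, and both carry the same donor identifier, so differences between the libraries may be technical. Each library started from 300 ng of RNA with ERCC spike-in standards, the library kit is described as directional, and the spike-in mix as meant for stranded ribosome-reduced libraries.

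Expected counts, the reads a program assigned to each gene, totalled 38984236 in replicate 2 and 36982665 in replicate 1. Levels are given in TPM, the share of a library's transcripts corrected for transcript length, so levels of different genes can be set side by side. RNAs of the type misc_RNA held 27.7% of TPM in replicate 2 and 30.1% in replicate 1, which lowers the TPM of the other genes. Markers of the adrenal cortex were abundant, with Star at 1460 TPM (replicate 2) and 1611 TPM (replicate 1). Markers of other tissues were abundant as well, and differed between the libraries: Alb, the liver's main plasma protein, had 6173 TPM in replicate 2 and 2046 TPM in replicate 1. Across marker lists, 8 of 8 of liver, 11 of 11 of skeletal muscle and 7 of 7 of granulocytes were more than 2-fold higher in replicate 2, while 8 of 8 of the cortex and 8 of 8 of chromaffin cells were lower there by less than 1.5-fold. The 6 brown fat markers summed to 3034 TPM in replicate 2 and 3433 TPM in replicate 1. They did not share the rise, with 2 higher and 4 lower in replicate 2 and 0 more than 1.5-fold apart. In such bulk tissue, fewer cells of a type and less RNA per cell cannot be told apart.

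Ribosomal proteins bind ribosomal RNA to form the small and the large subunit of the ribosome, and nearly every cell needs them, most of them in about equal numbers. Their mRNAs are short and abundant, and in mammals many start with a C followed by a stretch of C and T bases, the 5′ terminal oligopyrimidine (TOP) motif, through which the kinase mTOR and the RNA-binding protein LARP1 control their translation. Mammalian genomes also hold many processed pseudogenes of these genes, intronless copies of the mRNAs inserted elsewhere in the genome.

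The starts of the genes are shown first because the TOP motif is the sequence feature that the family is known for. RefSeq (GRCm38.p6) start sites were matched for 63 of the 83 members. Among these, 14 (22.2%) had an annotated start (any of them where a gene has several) at a C within an unbroken run of at least 5 C or T bases on the sense strand. The share was 6.59% of 27025 genes in the same table and 6.42% of 9783 protein-coding genes with at least 1 TPM in both libraries. With a run of at least 8 bases, 12 members (19.0%) had such a start, against 2.61% of all genes. Allowing the start to move by up to 2 bases gave 26 members (41.3%), against 21.2% of all genes. The run may lie partly before the start, so the count is wider than that of a C followed by C and T bases. These counts describe letters around annotated starts, and no start was measured in these libraries. Each line below gives 25 bases before the start and 15 from the start on, 5′ to 3′ on the gene's strand, with the run of C and T that holds the start base in capitals.
Rps6 (small subunit, the substrate of the S6 kinases; chr4:86857353-86857392, minus strand): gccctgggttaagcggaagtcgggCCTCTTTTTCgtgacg
Rpl15 (large subunit; chr14:18270972-18271011, minus strand): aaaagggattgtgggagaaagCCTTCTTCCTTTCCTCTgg
Rpl35 (large subunit; chr2:39005117-39005156, minus strand): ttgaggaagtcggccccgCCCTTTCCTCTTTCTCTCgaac
Rps10 (small subunit; chr17:27635230-27635269, minus strand): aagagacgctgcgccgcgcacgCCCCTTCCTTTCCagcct
Rplp2 (stalk; chr7:141447626-141447665, plus strand): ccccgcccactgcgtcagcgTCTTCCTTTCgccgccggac
Rpl41 (large subunit; chr10:128549154-128549193, minus strand): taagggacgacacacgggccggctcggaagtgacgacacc
Rplp0 (stalk; chr5:115559442-115559481, plus strand): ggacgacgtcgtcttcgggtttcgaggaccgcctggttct
Rpl3l (paralog; chr17:24727801-24727840, plus strand): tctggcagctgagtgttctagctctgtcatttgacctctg
The first 5 are among the 14 genes with such a start. The start base shown for Rpl41, Rplp0 and Rpl3l is a G, and their windows hold no capitals.

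Most of the 83 members were among the most abundant mRNAs of these libraries. Markers of other tissues were abundant in them too, so ranks and shares describe the sample as a whole. Ranked by mean TPM among the nuclear protein-coding genes, members filled 9 of the first 50 places, 26 of the first 100 and 72 of the first 500. Together they held 7.30% of the TPM of these genes in replicate 2 and 7.83% in replicate 1, or 7.57 ± 0.373% (SD, n = 2). As a share of expected counts, which favours long mRNAs, the value was 2.09% in replicate 2 and 2.21% in replicate 1. The median core member had 319 TPM (replicate 2) and 326 TPM (replicate 1). The median of the 43 genes of the large subunit was 272 TPM (replicate 2) and 281 TPM (replicate 1). The median of the 30 genes of the small subunit was 334 TPM in replicate 2 and 337.5 TPM in replicate 1.

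**Figure D1:**
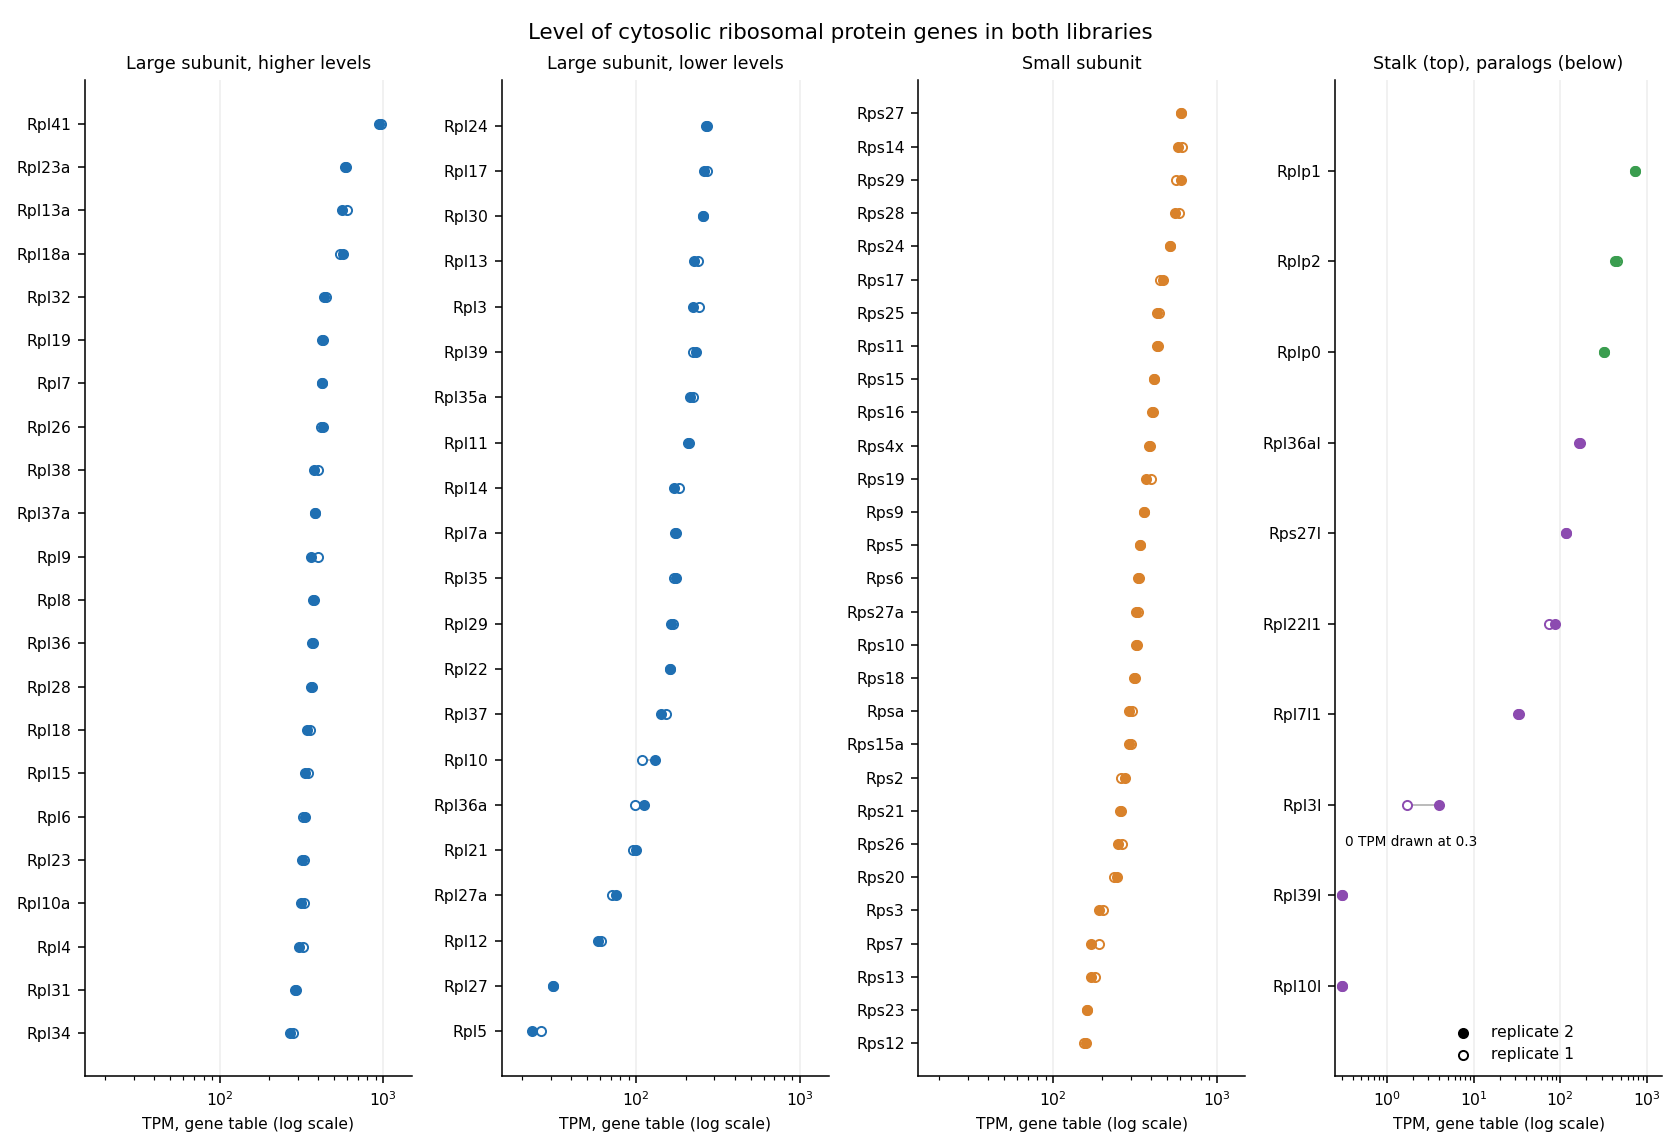
TPM of the gene table (log scale) for 82 of the 83 members, by role, in replicate 2 (filled) and replicate 1 (open). Most core members lie between 200 and 600 TPM in both libraries, Rpl41 stands at the top with 947 TPM in replicate 2 and 978 TPM in replicate 1, and a tail of large subunit genes runs down to Rpl5 at 22.9 and 26.3 TPM.

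Among the core members, Rpl41, the smallest protein of the large subunit, had the highest level, 947 TPM in replicate 2 and 978 TPM in replicate 1. Rplp1, an acidic protein of the stalk that draws translation factors to the ribosome, followed with 726 TPM in replicate 2 and 735 TPM in replicate 1. Its partner Rplp2 had 426 TPM in replicate 2 and 449 TPM in replicate 1, and Rplp0, the base on which both sit, had 321 TPM (replicate 2) and 320 TPM (replicate 1). The 3 stalk levels stood in the same order in both libraries of the gene table. A second table of the authors, with TPM per transcript summed per gene here, gave the opposite order in both, with Rplp1 at 657 and 737 TPM, Rplp2 at 754 and 781 TPM and Rplp0 at 767 and 825 TPM in replicates 2 and 1.

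The next 6 places were close together. Rps27, a zinc-finger protein of the small subunit, had 610 TPM in replicate 2 and 608 TPM in replicate 1. Rps14 had 581 TPM in replicate 2 and 611 TPM in replicate 1, and Rps29 had 605 TPM in replicate 2 and 564 TPM in replicate 1. Rps28 had 555 TPM in replicate 2 and 591 TPM in replicate 1. Of the large subunit, Rpl23a, at the exit of the peptide tunnel, had 591 TPM in replicate 2 and 589 TPM in replicate 1. Rpl13a had 564 TPM (replicate 2) and 600 TPM (replicate 1). Rps27 lay above Rps29, Rps28, Rpl23a and Rpl13a in both libraries without overlap, while the range of Rps14 overlapped that of Rps27 and the other 5 genes overlapped each other.

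The low end was made up of genes of the large subunit. Rpl5, which carries the 5S ribosomal RNA into the ribosome and binds the p53 inhibitor Mdm2, had 22.9 TPM in replicate 2 and 26.3 TPM in replicate 1. Rpl27 had 30.8 TPM in replicate 2 and 31.0 TPM in replicate 1. Rpl12, a protein at the base of the stalk, had 57.9 TPM in replicate 2 and 60.6 TPM in replicate 1. These 3 genes lay more than 5-fold below the median of the core members in both libraries.

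Above them, Rpl27a had 75.4 TPM in replicate 2 and 71.3 TPM in replicate 1, and Rpl21 had 99.3 TPM in replicate 2 and 96.0 TPM in replicate 1. Rpl36a had 111 TPM in replicate 2 and 98.8 TPM in replicate 1. Rpl10, one of the last proteins to join the large subunit, had 130 TPM in replicate 2 and 108 TPM in replicate 1. Rpl37 had 142 TPM (replicate 2) and 152 TPM (replicate 1). The range of Rpl36a overlapped those of Rpl21 and Rpl10, which did not differ from it beyond the spread between the libraries. The ratio of the highest to the lowest core member was 41.4 in replicate 2 and 37.2 in replicate 1, and that of the 90th to the 10th percentile was 3.72 in replicate 2 and 3.62 in replicate 1.

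These low levels moved when copies of the same sequence were counted with the gene. A search of all annotated transcripts with each member's coding sequence found 979 genes that match at least 80% of its length at 90% identity or more on the sense strand, 959 of them annotated as pseudogenes and 18 as protein-coding. In all, 77 members had at least 1 copy, the median was 8, and Rpl21 had 77, Rpl7a 75 and Rpl29 59. Of the copies, 478 had 0 expected counts in both libraries and 134 had at least 1 TPM in both. The copies held 23.1% of the expected counts of members and copies in replicate 2 and 23.2% in replicate 1. For 13 of the 76 core members the copies held more than 50% of these counts, and for 35 they held less than 10%. The search was run with the members alone, so no values over all genes stand beside these numbers and shares of copies. They do not set the members apart from other genes.

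Rpl5 had 1338 expected counts in replicate 2 and 1525 in replicate 1. Its copy Gm15500, a processed pseudogene on chromosome 7 (114705217 to 114706235, mm10), had 10478 expected counts in replicate 2 and 10333 in replicate 1. The coding sequence of Rpl5 matched that copy at 100% identity, and the gene and its copies together stood at 330 TPM (replicate 2) and 334 TPM (replicate 1). The median of the core members with copies was higher, 418 TPM in replicate 2 and 435 TPM in replicate 1. For the genes alone it was 319 and 326 TPM. Rpl27 had 659 expected counts in replicate 2 and 649 in replicate 1, while its pseudogenes Gm11518 and Rpl27-ps3 were each given exactly 1695 in replicate 2 and 1684 in replicate 1. The deposited TPM interval of Gm11518 ran from 23.1 to 272 TPM in replicate 2. With its copies, Rpl27 stood at 324 TPM (replicate 2) and 326 TPM (replicate 1).

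The sequences of 2 such pairs show how little there is to tell gene and copy apart. The first 60 coding bases are given for Rpl10 (chromosome X, 74270812 to 74273135, plus strand, mm10) and Rpl10-ps3 (chromosome 9, 50344201 to 50344968, minus strand, mm10), whose 642 coding bases do not differ at any position. For Rpl3, a protein next to the site of peptide bond formation (chromosome 15, 80077791 to 80091868, minus strand, mm10), and its copy Rpl3-ps1 (chromosome X, 13202571 to 13203780, plus strand, mm10), coding bases 27 to 86 are given, with the base that differs in capitals. That pair differs at 2 of 1209 coding bases.
Rpl10: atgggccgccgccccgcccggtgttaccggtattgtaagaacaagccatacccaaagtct
Rpl10-ps3: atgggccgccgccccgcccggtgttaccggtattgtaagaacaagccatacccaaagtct
Rpl3: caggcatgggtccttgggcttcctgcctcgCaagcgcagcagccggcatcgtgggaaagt
Rpl3-ps1: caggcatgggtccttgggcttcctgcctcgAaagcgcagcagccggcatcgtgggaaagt
Rpl10-ps3, which the annotation calls protein-coding in spite of its name, had 7233 expected counts in replicate 2 and 7752 in replicate 1, against 3495 and 2889 of Rpl10 itself. Rpl3-ps1 had 7406 expected counts in replicate 2 and 7614 in replicate 1, against 8112 and 8369 of Rpl3. These tables cannot show which of the reads came from gene or copy where the letters are identical.

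With copies added, no core member lay below 150 TPM in both libraries, against 7 of 76 for the genes alone, and Rpl22 was the lowest at 162 TPM (replicate 2) and 162 TPM (replicate 1). The ratio of the 90th to the 10th percentile was 2.13 in replicate 2 and 2.20 in replicate 1, against 3.72 and 3.62 for the genes alone. The ratio of the highest to the lowest was 6.06 in replicate 2 and 6.24 in replicate 1, against 41.4 and 37.2. In the second table that ratio was 12.3 in replicate 2 and 11.8 in replicate 1 with copies, against 12.3 and 11.7 for the genes alone. In the gene table, the SD of log2 TPM across the 76 genes was 0.46 in each of the libraries with copies, against 0.92 for the genes alone. In the second table it was 0.53 in each of the libraries with copies, against 0.65 in replicate 2 and 0.66 in replicate 1 for the genes alone. Across the 81 members with counts, the number of copies had a Spearman correlation of -0.00899 with TPM. With the deposited posterior SD of the count over the square root of the posterior mean count, the correlation was 0.513. Both are descriptions over genes that share both libraries.

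**Figure D2:**
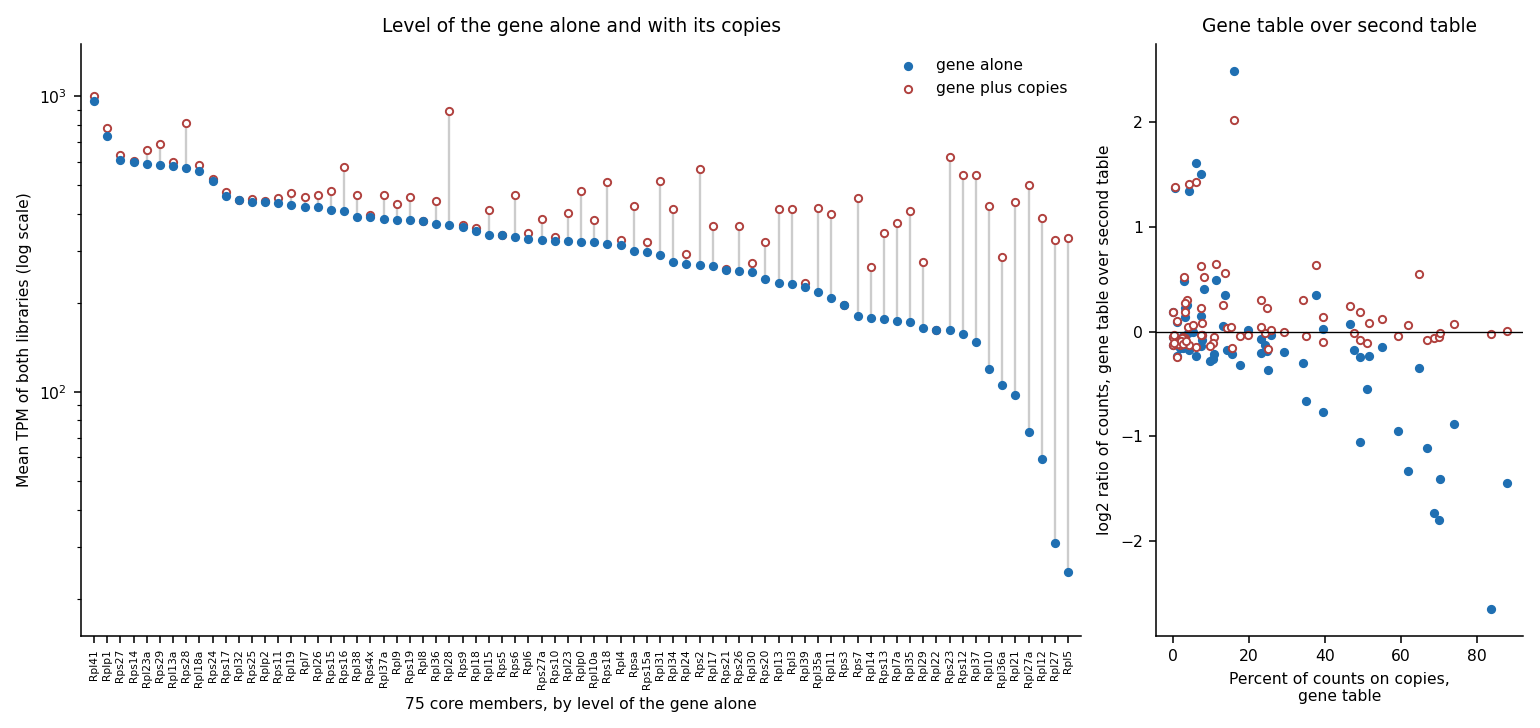
Left, mean TPM of both libraries (log scale) of 75 of the 76 core members, for the gene alone (filled) and with its copies (open). Right, log2 ratio of counts in the gene table over the second table against the percent of counts on copies. The 8 lowest genes move up to between 286 and 541 TPM, and the ratios of genes with many counts on copies move to near 0, while 4 ratios above 1 stay there.

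The authors also deposited a second table of estimated counts and TPM per transcript, made directly from reads and an index, which was summed per gene here. By counts, 7 of the 81 members were more than 2-fold lower in the gene table than in the second table in both libraries, where 0.42% of 12869 genes did, and 5 were more than 2-fold higher, where 0.606% of genes did. The median log2 ratio of counts was -0.13 in replicate 2 and -0.10 in replicate 1 for members, against -0.12 and -0.10 for all genes. The interquartile range was 0.26 in replicate 2 and 0.31 in replicate 1 for members, against 0.11 in each of the libraries for all genes. The 7 lower genes were Rpl27 (log2 ratio -2.65, mean of both libraries), Rpl10 (-1.80), Rps23 (-1.74), Rpl5 (-1.45), Rpl27a (-1.41), Rpl28 (-1.33) and Rpl21 (-1.11).

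Rpl27 had 659 counts in replicate 2 and 649 in replicate 1 in the gene table, against 4147 and 4053 in the second table, and Gm11518 had 0 in the second table in both libraries. Rpl10 had 3495 counts in replicate 2 and 2889 in replicate 1 in the gene table, against 11172 and 11024 in the second table, where Rpl10-ps3 had 0. Rps23, a protein of the decoding centre, had 2525 and 2503 counts in the gene table, against 8362 and 8405 in the second table. Its copy Rps23-ps1 had 5432 and 5616 counts in the gene table and 0 in the second table. The same held for Rpl28, whose copy Rpl28-ps1 had 5082 counts in replicate 2 and 4745 in replicate 1 in the gene table and 0 in the second table. The copies held 23.1% of the counts of members and copies in replicate 2 and 23.2% in replicate 1 in the gene table, against 11.2% in replicate 2 and 11.3% in replicate 1 in the second table.

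With members and copies summed in both tables, 0 of 81 members were more than 2-fold lower in the gene table and 4 were more than 2-fold higher, and the median absolute log2 ratio was 0.10, against 0.19 for the genes alone. The 4 were Rpl36, Rplp1, Rps29 and Rps21. Rpl36 had 3857 counts in replicate 2 and 3876 in replicate 1 in the gene table, against 740 and 638 in the second table, a log2 ratio of 2.49 alone and 2.02 with copies. Rplp1 had 10787 and 10760 counts in the gene table, against 3510 and 3549 in the second table. Rps21 had 2817 and 2823 counts, against 1084 and 1089, and its ratio of 1.38 was the same with its copies. Rpl19, with a ratio of 1.51 alone, had 0.62 with its copies.

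By TPM, 34 of the 81 members were more than 2-fold lower in the gene table than in the second table in both libraries, where 9.16% of 12869 genes were, and 0 were more than 2-fold higher, where 0.163% of genes were. The median log2 ratio of TPM was -0.93 in replicate 2 and -0.995 in replicate 1 for members, against -0.60 and -0.69 for all genes. The median core member had 319 TPM in replicate 2 and 326 TPM in replicate 1 in the gene table, against 603 and 654 TPM in the second table. The bases taken off a transcript's length before dividing were 99 in the gene table, against 329 in replicate 2 and 333 in replicate 1 in the second table, and the leading transcript of the core members was 592.5 bases long at the median. The part of that difference in the TPM ratio was not tested. The 5 lowest TPM ratios were those of Rpl27 (-3.74), Rpl27a (-3.38), Rpl5 (-3.15), Rpl10 (-2.79) and Rps23 (-2.55), and the 5 highest those of Rpl36 (0.58), Rpl19 (0.48), Rps3 (0.08), Rplp1 (0.06) and Rpl17 (0.01).

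The rank order of the core members depended on the table. Between the tables, the Spearman correlation of mean TPM over the 76 genes was 0.585 for the genes alone and 0.787 with copies, while between replicate 2 and replicate 1 of the gene table it was 0.995. The tables were made from the same reads, so these are descriptions of the assignment.

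The gene table also gives a posterior spread for each count. The posterior SD, given as a multiple of the square root of the count, had a median of 0.465 in replicate 2 and 0.487 in replicate 1 over the 81 members with at least 100 mean counts, against 0 over 13188 genes. It was above 1 in both libraries for 11 members, against 403 of 13188 genes. The 5 widest were Rpl10, with 3.34 in replicate 2 and 2.93 in replicate 1, then Rps12 with 2.12 and 2.08, Rpl3 with 1.505 and 1.59, Rpl11 with 1.46 and 1.42, and Rps7 with 1.46 and 1.31. Each of the 5 had between 8 and 23 copies. The deposited TPM interval spanned 6.42% of TPM in replicate 2 and 6.34% in replicate 1 at the members' median, against 21.6% and 22.1% for all genes, which have fewer counts.

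Between the libraries the members were close. Over the 81 members with more than 3 counts, the median log2 ratio of replicate 2 over replicate 1 was -0.00068 (TMM-scaled counts), with 40 higher and 41 lower, and it was -0.078 with scaling by library total, -0.057 with scaling by spike-in total and 0.018 in the second table. Of 13188 genes with at least 100 mean counts, 6457 were higher and 6731 lower by TMM-scaled counts. The median absolute log2 ratio was 0.036 (1.03-fold) for members, against 0.13 (1.09-fold) for 13188 genes with at least 100 mean counts. Within 1.1-fold lay 93.8% of members, against 53.01% of all genes, and among genes with at least 1000 mean counts 94.9% of 79 members, against 63.2% of 5675 genes. Rpl3l was the 1 member more than 1.5-fold apart, and it was also more than 2-fold apart, where 8.47% and 4.48% of the 13188 genes passed these limits.

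**Figure D3:**
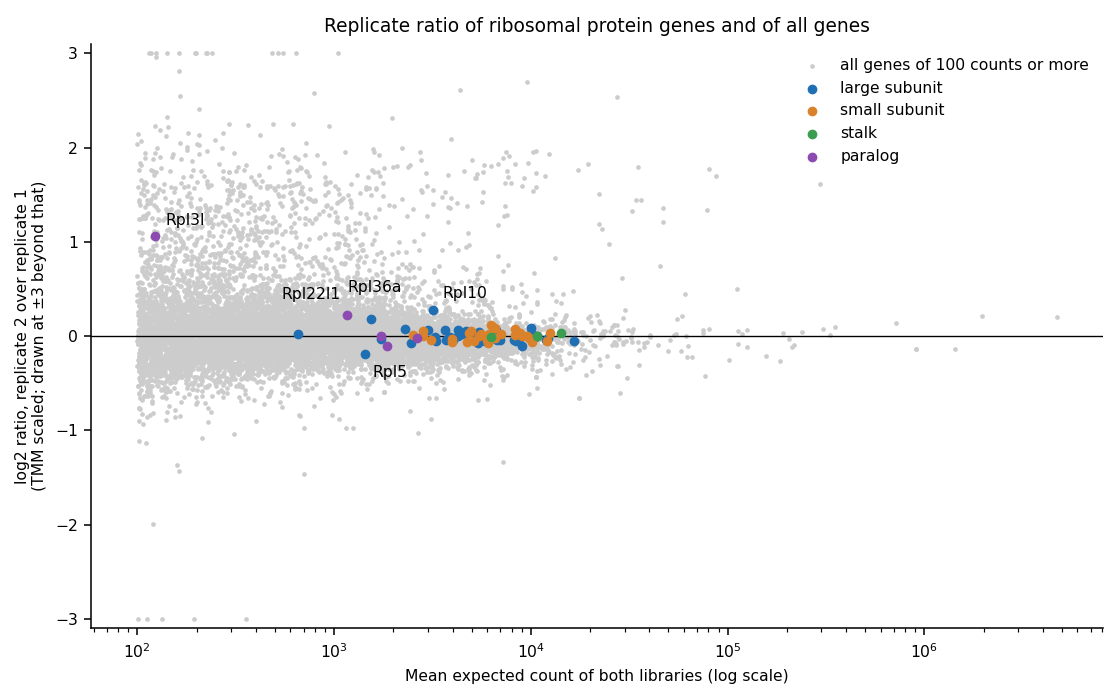
log2 ratio of replicate 2 over replicate 1 against the mean expected count (log scale) for all genes with at least 100 mean counts (grey) and for the members by role (coloured). Members form a narrow band around 0, from -0.19 (Rpl5) to 0.28 (Rpl10) for the core, with Rpl3l apart at 1.06.

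Rpl3l, the paralog of Rpl3 found in striated muscle, was the member that differed, with 167 counts in replicate 2 and 80 in replicate 1, a fold of 2.09 (95% interval 1.59 to 2.76, exact binomial, counting error only). Next came Rpl10 with a log2 ratio of 0.28, Rpl22l1 with 0.23, Rpl36a with 0.19 and Rps29 with 0.12. The lowest were Rpl5 with -0.19, Rpl9 with -0.11, Rpl7l1 with -0.10, Rpl14 with -0.07 and Rpl37 with -0.07. With copies added, the ratio of Rpl10 was 0.01, that of Rpl5 -0.0049, and that of Rpl36a 0.06. The core members then ranged from -0.10 to 0.13, and 0 of 76 were more than 1.1-fold apart, against 3 for the genes alone. In the second table the ratio of Rpl10 was 0.01 and that of Rpl5 -0.04. Rpl22l1 kept 0.23 in the second table and with its copies.

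The paralogs ranged from levels near the core members to 0. Rpl36al, an autosomal relative of the X-linked Rpl36a, had 164 TPM in replicate 2 and 169 TPM in replicate 1 in the gene table, above Rpl36a by 0.66 ± 0.15 on the log2 scale (SD, n = 2), but below it by the second table, where the log2 ratio was -0.34 ± 0.07. Rps27l, known as a target of p53, had 116 TPM in replicate 2 and 118 TPM in replicate 1, with a log2 ratio to Rps27 of -2.38 ± 0.02. Rpl22l1 had 86.4 TPM in replicate 2 and 74.8 TPM in replicate 1, with a log2 ratio to Rpl22 of -1.01 ± 0.15. Rpl7l1, a nucleolar relative of Rpl7, had 32.9 TPM in replicate 2 and 32.6 TPM in replicate 1, with a log2 ratio to Rpl7 of -3.69 ± 0.02.

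Rpl3l had 3.99 TPM in replicate 2 and 1.71 TPM in replicate 1, against 223 and 240 TPM of Rpl3, or 1.76% and 0.707% of the TPM of the pair. Copies of Rpl3, among them Rpl3-ps1, are not part of these values. Beside it, the 11 skeletal muscle markers summed to 943 TPM in replicate 2 and 350 TPM in replicate 1, with a median log2 ratio of 1.38 and none at 0. The 6 cardiac markers summed to 5.73 TPM in replicate 2 and 2.40 TPM in replicate 1, with Nppa at 0 in both. The part of these tissues in the level of Rpl3l was not tested. The coding sequences of Rpl3l and Rpl3 were 73.2% identical, and the first 60 bases, with the 13 that differ in capitals, can be set beside the single difference shown for Rpl3 and Rpl3-ps1.
Rpl3l: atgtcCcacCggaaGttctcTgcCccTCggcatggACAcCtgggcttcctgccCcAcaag
Rpl3: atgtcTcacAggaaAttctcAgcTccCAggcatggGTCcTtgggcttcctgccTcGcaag

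Rpl10l and Rpl39l, which are known from male germ cells, had 0 counts in both libraries. A floor of 3 counts in each library allows Rpl10l up to 0.0874 TPM in replicate 2 and 0.0887 TPM in replicate 1, so that it was at least 1489-fold lower than Rpl10 in replicate 2 and at least 1220-fold lower in replicate 1. For Rpl39l the floor is 0.140 TPM in replicate 2 and 0.142 TPM in replicate 1, at least 1651-fold lower than Rpl39 in replicate 2 and at least 1573-fold lower in replicate 1. Of 9 markers of male germ cells, 5 were at 0 in both libraries (Prm1, Prm2, Tnp1, Tnp2 and Stra8), and the 9 summed to 0.81 TPM (replicate 2) and 0.72 TPM (replicate 1). The coding sequences of Rpl10l and Rpl10 were 84.7% identical and those of Rpl39l and Rpl39 85.0%.

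**Figure D4:**
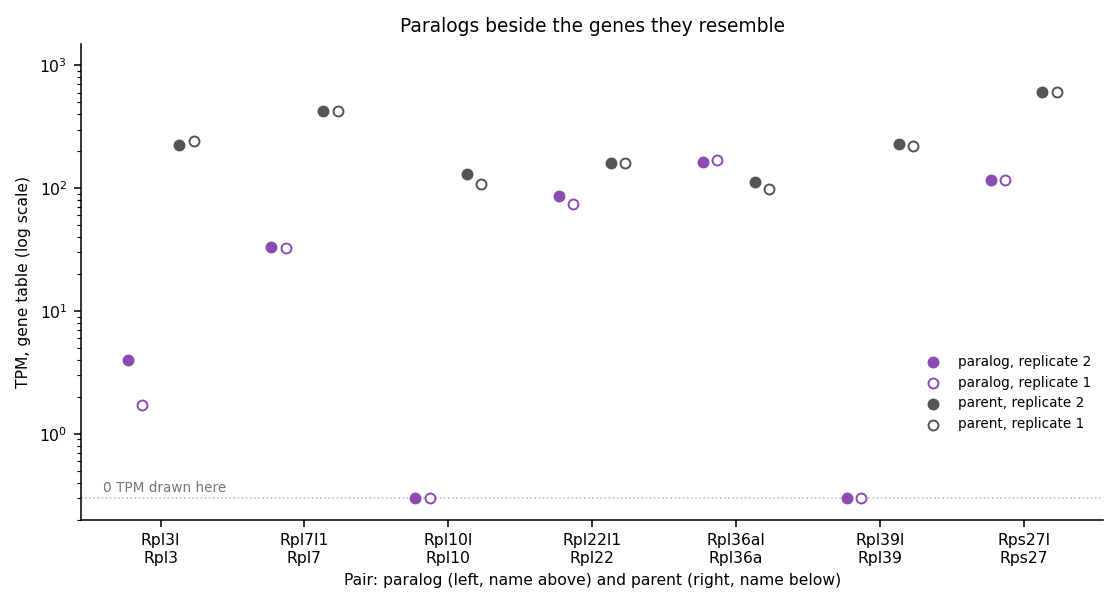
TPM of the gene table (log scale) of the 7 paralogs (purple) beside the genes they resemble (grey), in replicate 2 (filled) and replicate 1 (open). Rpl36al alone lies above its relative in this table (and below it in the second table), Rpl10l and Rpl39l are at 0, and Rpl3l is the paralog whose libraries are farthest apart.

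The annotation gives 497 transcripts to the 81 members with counts, 2 of which have a single transcript. At the median, the leading transcript held 83.5% of a member's TPM in replicate 2 and 84.7% in replicate 1 in the gene table, against 68.1% and 71.4% in the second table. Transcripts of the type protein_coding held 82.7% of the members' TPM in replicate 2 and 82.6% in replicate 1 in the gene table, against 66.0% and 66.1% in the second table. Retained introns held 9.05% in replicate 2 and 9.26% in replicate 1 in the gene table, against 18.7% and 18.8% in the second table. In both libraries, 14 members had less than 50% of their TPM on coding transcripts in the gene table, and 24 in the second table. For 43 of the 81 members, the transcript with the most TPM was the same in both libraries within each table but differed between the tables. No values over all genes stand beside these transcript counts and shares. They therefore describe the members only and do not set them apart from other genes. For Rps27 the gene table gave 99.1% of TPM in replicate 2 and 98.7% in replicate 1 to the coding Rps27-201, while the second table gave 75.6% and 85.0% to Rps27-209, a retained intron.

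Introns of ribosomal protein genes also hold small nucleolar RNAs, which guide the modification of ribosomal RNA. The annotation places 56 of them inside 29 members on the same strand, of which 17 had counts above 0 in both libraries of the gene table, while all 56 had 0 in the second table. The gene table gives 33 of the 56 an effective length of 0, so their counts of 0 are no measurement. The longest of the 56 has 203 bases. The second table took 329 bases (replicate 2) and 333 bases (replicate 1) off the length, at the median of targets of 1000 bases or more. Its counts of 0 may therefore be no measurement either. In the gene table, Gm26448 in Rpsa had 1454 counts in replicate 2 and 1660 in replicate 1. Within Rps3, Snord15b had 576 counts in replicate 2 and 544 in replicate 1, and Snord15a had 326 and 322.

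The symbol rule misses some proteins of the cytosolic ribosome, and 3 of them had levels like those of the core. Fau, a ubiquitin-like fusion with a protein of the small subunit, had 393 TPM in replicate 2 and 382 TPM in replicate 1. Rps3a1 had 287 TPM in replicate 2 and 291 TPM in replicate 1, and Rack1, a signalling scaffold on the small subunit, had 285 TPM in replicate 2 and 283 TPM in replicate 1. Between the libraries, the log2 ratio of Fau was 0.06, that of Rps3a1 0.0042 and that of Rack1 0.0025.

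Genes that make, carry or regulate ribosomes were followed for comparison. Beside their splits, 6457 of all 13188 genes with at least 100 mean counts were higher in replicate 2 and 6731 lower (TMM scaling, median log2 ratio -0.0054). Among 5675 genes with at least 1000 mean counts, 2427 were higher and 3248 lower, with a median of -0.025. Of 26 ribosome biogenesis factors, 25 had lower values in replicate 2 and 1 a higher value, with a median log2 ratio of -0.15, and each scaling tried and the second table gave 25 or 26 lower. The 4 most abundant were Ncl, a nucleolar RNA-binding protein, with 83.2 TPM in replicate 2 and 94.7 TPM in replicate 1, Eif6, which keeps the subunits apart, with 40.2 and 48.1 TPM, Nop58 with 41.8 and 42.2 TPM, and Nop56 with 31.4 and 36.7 TPM. None of the 26 was more than 1.5-fold apart. The 8 proliferation markers were lower in replicate 2 as well, with a median of -0.29, and their part in these values was not tested.

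Of 16 translation genes known for TOP mRNAs, 7 were higher and 9 lower in replicate 2, with a median log2 ratio of -0.02, which was 0.0039 in the second table and below 0 under the other scalings. The split was 1 higher and 15 lower with scaling by library total, and 3 higher and 13 lower with scaling by spike-in total. Eef1a1, the elongation factor that brings tRNAs, had 2236 TPM in replicate 2 and 2153 TPM in replicate 1, Tpt1 had 1085 and 1034 TPM, Eef2 had 487 and 490 TPM, and the poly(A)-binding protein Pabpc1 had 243 and 240 TPM. Of 15 genes of mTOR and TOP control, 3 were higher and 12 lower, with a median of -0.07. Among them were the cap-binding protein Eif4e with 57.2 TPM in replicate 2 and 62.8 TPM in replicate 1, its inhibitors Eif4ebp2 with 38.6 and 35.0 TPM and Eif4ebp1 with 36.4 and 32.6 TPM, and Larp4 with 33.4 and 33.2 TPM.

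Of 11 chaperones and importins of ribosomal proteins, 3 were higher and 8 lower, with a median of -0.09. The most abundant were Aamp with 52.7 TPM in replicate 2 and 54.8 TPM in replicate 1, Tnpo1 with 32.4 and 35.8 TPM, Ipo7 with 27.4 and 28.2 TPM, and Ipo9 with 26.8 and 28.5 TPM. Of 6 genes of the p53 checkpoint, to which free Rpl5 and Rpl11 are known to signal, 2 were higher and 4 lower, with a median of -0.02. Cdkn1a, the cell cycle inhibitor induced by p53, had 66.7 TPM in replicate 2 and 50.03 TPM in replicate 1, Ccng1 had 23.6 and 20.6 TPM, Mdm4 had 19.4 and 24.9 TPM, and Trp53 itself had 19.9 and 21.99 TPM. No gene of these 4 lists was more than 1.5-fold apart.

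**Figure D5:**
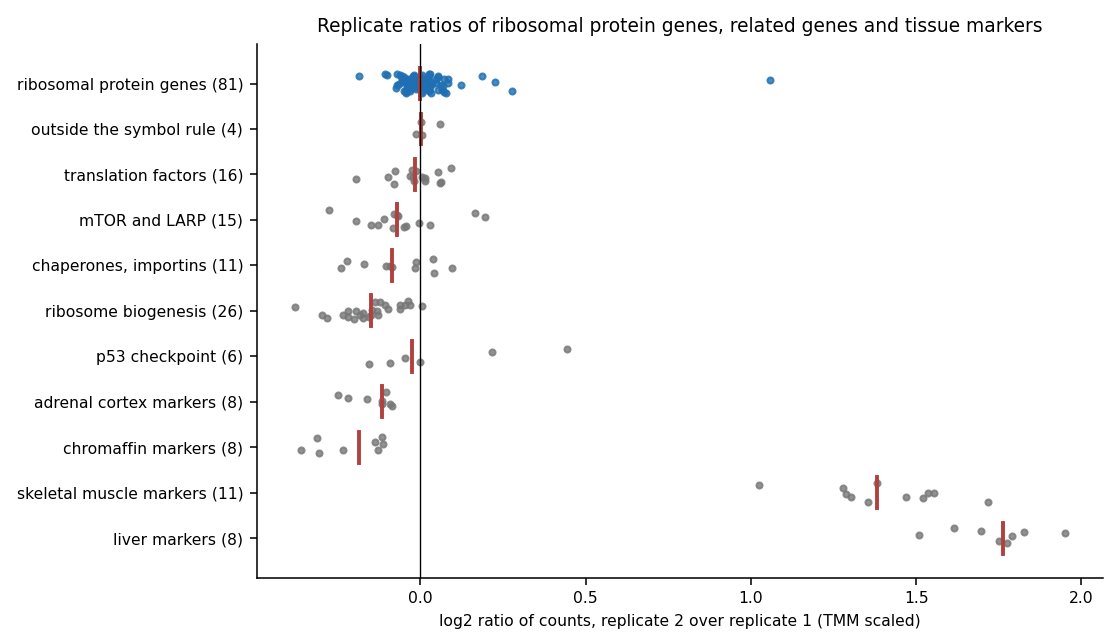
log2 ratio of counts, replicate 2 over replicate 1, for each gene of the ribosomal protein set, of related lists and of tissue markers, with the number of genes in brackets and the median as a bar. The ribosomal protein genes centre on 0, the biogenesis factors on -0.15, and the skeletal muscle and liver markers on 1.38 and 1.76.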

How the data were processed

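Total RNA-seq tables of 2 libraries, replicate 2 and replicate 1 of 1 group, were used. The authors deposited a gene table and its transcripts, estimated from reads aligned to transcripts (mm10, GENCODE M21, per the deposited notes). Per the file headers, these hold expected counts without normalisation and their posterior SD, TPM over all entries with an interval, and, as deposited, the percent of a gene's TPM on each transcript. The authors' second transcript table holds estimated counts and TPM, per the file headers. No source used here names the tools or their versions. Interval bounds of TPM are the authors' values.

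Members, lists and naming rules were chosen with earlier results of these data known. Genes named are the highest, lowest and most divergent members, the paralogs, and the 4 most abundant genes of each list. The examples of copies, transcripts, small nucleolar RNAs and start windows were chosen after their values were seen, and so were all values with copies by sequence. Ratios used TMM-scaled counts (edgeR 4.0.16) plus 0.5. Fold intervals are exact binomial (Clopper-Pearson) at 95%, and 0 counts allow up to 3 counts in a library. Both cover counting error only. Copies were found with blastn 2.17.0, and 4 genes that overlap a member were left out of them. The ratio step was tested on simulated data. No test between conditions was possible. Alternatives were DESeq2 1.42.0 size factors, library and spike-in totals, other priors and filters, named pseudogenes and each library alone. Some genes named by these rules are not reported here.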

Additional observations from a re-analysis of the deposited data

How the results depend on the processing

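No paired analysis was possible because there is 1 group. The count of members more than 1.5-fold apart between the libraries was 1 under every alternative run. The median log2 ratio of members was -0.078 with library totals, -0.057 with spike-in totals, 0.018 in the second table and 0.017 as a mean of the list, so its sign is not resolved. Of the 8 gene group lists, 3 had a median above 0: the stalk, the paralogs (with the pseudogene Rps4l) and the genes outside the symbol rule. The lists of translation genes, biogenesis factors, chaperones and importins, mTOR control and the p53 checkpoint had medians below 0. The number above 0 was 0 with library totals, 1 with spike-in totals and 4 in the second table. The median level of a core member, 322 TPM, was 968 TPM when rescaled over nuclear protein-coding genes, 628 TPM in the second table, 317 TPM from posterior means and 426 TPM with copies by sequence. The members' share, 2.15% of counts, was 7.57% of TPM. The 90th over 10th percentile, 3.67, was 3.11 in the second table, 3.50 with named pseudogenes and 2.16 with copies by sequence. The number of members more than 2-fold lower in the gene table, 34 by TPM, was 7 by counts and 0 by counts with copies. The posterior SD ratio, 0.476, has as its counterpart a TPM interval 6.41% wide. Rpl36al over Rpl36a turned to -0.34 in the second table, where Rpl7l1 over Rpl7 was -3.47, Rpl22l1 over Rpl22 -0.61 and Rps27l over Rps27 -2.004. With a pseudocount of 1 TPM, Rpl7l1 over Rpl7 was -3.65. Members with a start at a C in a run of C and T, 14, were 26 within 2 bases. The median percent on coding transcripts, 97.4, was 88.5 in the second table. The cause of these moves was not tested beyond what each alternative changes by construction.

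With either library alone, the median level was 319 to 326 TPM, the share 2.09 to 2.21%, the percentile ratio 3.62 to 3.72, the number more than 2-fold lower 34 to 40, the posterior SD ratio 0.465 to 0.487 and the percent on coding transcripts 97.1 to 97.6. The log2 ratio to the related gene was -7.13 to -5.81 for Rpl3l, -3.70 to -3.68 for Rpl7l1, -1.11 to -0.90 for Rpl22l1, 0.55 to 0.77 for Rpl36al and -2.39 to -2.37 for Rps27l. With 2 libraries, the SD of a value rests on 1 degree of freedom. Low counts limit Rpl3l alone among the members above 0.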
